A study of Rattus norvegicus with 12 samples.

Results

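Regulators of G protein signalling (RGS) switch off heterotrimeric G proteins, and 7 of their genes, Rgs2, Rgs3, Rgs4, Rgs5, Rgs10, Rgs12 and Rgs16, were followed here as regulators of G proteins in rat vascular smooth muscle cells. They were taken by symbol from a table of counts per gene, which held all 7 among its 33294 genes. RNA with poly(A) tails had been sequenced from 12 libraries of PAC1 cells, an established smooth muscle cell line from rat pulmonary artery, in 4 groups of 3. The group D1 was the more differentiated culture (PAC1-D), passaged weekly, and received a control siRNA. The group P was the more proliferative culture (PAC1-P), passaged more often and at a higher dilution, and received the same kind of control siRNA. RBPMS KD1 and MBNL KD were PAC1-D cells that received siRNA against Rbpms, or against both Mbnl1 and Mbnl2, which encode RNA-binding proteins that regulate splicing. All 12 cultures, controls included, were thus transfected, with 90 pmol of siRNA given at the start and again after 24 h, and were harvested 48 h after that according to the sample descriptions. All libraries came from 1 cell line, and the sample descriptions do not say whether the 3 libraries of a group came from separate cultures, so that the p-values measure the spread between these libraries. The paper's methods give at least 3 biological replicates for each condition.

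A receptor bound by its ligand loads the G protein alpha subunit with GTP, and the alpha subunit and the freed beta-gamma dimer then act on effectors until the GTP is hydrolysed. RGS proteins speed up that hydrolysis and so shorten the signal. In vascular smooth muscle, Gq and G12/13 lead to contraction, Gi lowers cAMP, and Rgs2, which prefers Gq, is known for its part in the control of blood pressure and as a target of the cGMP-dependent kinase. Rgs2, Rgs3, Rgs4, Rgs5 and Rgs16 belong to the R4 subfamily, most of whose members act on both Gi and Gq. Rgs10 and Rgs12 belong to the R12 subfamily and act on Gi. Rgs5 is widely used to mark pericytes and other mural cells, and the proteins of Rgs4, Rgs5 and Rgs16 are short-lived because oxidation of an N-terminal cysteine by the dioxygenase Ado marks them for degradation.

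The promoters of Rgs2, Rgs3 and Rgs16 are shown because these 3 genes differed by more than 2-fold between D1 and P. Each sequence is the 250 bases before the gene's RefSeq start, 5′ to 3′ on the gene's own strand, from the assembly GRCr8, at chr13:58352667-58352916 (minus strand) for Rgs2, chr5:81093801-81094050 (plus strand) for Rgs3 and chr13:68437870-68438119 (plus strand) for Rgs16. The table gives 1 start for each gene, the counts do not tell which start was in use, and the counts themselves were made on another assembly, mRatBN7.2. Capitals mark the TATA box TATAAA, the CCAAT box CCAAT, the GC box GGGCGG and the half-site TGACG of cAMP-responsive elements, each on either strand.
Rgs2: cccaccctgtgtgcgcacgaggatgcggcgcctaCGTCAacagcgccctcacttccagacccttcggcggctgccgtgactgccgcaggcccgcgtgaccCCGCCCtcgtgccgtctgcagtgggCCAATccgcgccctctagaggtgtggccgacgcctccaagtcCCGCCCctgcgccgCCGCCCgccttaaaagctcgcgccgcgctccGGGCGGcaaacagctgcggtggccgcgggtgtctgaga
Rgs3: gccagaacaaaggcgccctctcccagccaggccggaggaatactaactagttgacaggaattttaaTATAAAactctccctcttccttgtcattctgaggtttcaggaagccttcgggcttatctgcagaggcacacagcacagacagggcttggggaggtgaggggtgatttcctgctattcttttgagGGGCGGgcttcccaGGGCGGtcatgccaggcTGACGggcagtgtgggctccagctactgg
Rgs16: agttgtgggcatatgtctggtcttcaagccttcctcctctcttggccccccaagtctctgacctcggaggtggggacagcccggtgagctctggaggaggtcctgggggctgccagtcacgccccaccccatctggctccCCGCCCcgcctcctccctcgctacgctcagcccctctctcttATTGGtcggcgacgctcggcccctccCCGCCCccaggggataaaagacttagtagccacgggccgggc

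In the Rgs2 window, the CCAAT box lay 125 to 121 bases before the start and there were 4 GC boxes, the nearest 38 to 33 bases before it. The Rgs3 window held TATAAA 184 to 179 bases before the start, GC boxes at 60 to 55 and 46 to 41 bases, and TGACG at 29 to 25 bases. The Rgs16 window held a CCAAT box 68 to 64 bases before the start, and its GC boxes lay at 110 to 105 and 42 to 37 bases. Among all 7 genes, all of which had a promoter entry, a GC box was found in 6, a CCAAT box in 3, TGACG in 3 and TATAAA in 2, whereas 30.5%, 34.0%, 18.2% and 12.9% of all 33469 promoter windows of that length held them. The AP-1 site TGANTCA was found in the window of Rgs12 alone of the 7 and in 6.34% of all windows. The CArG box, the binding site of serum response factor, was found in none of the 7 and in 501 of all windows. The Rgs2 window was also rich in CpG, with 33 of them and 72.4% G and C, against 6 and 55.6% for Rgs3, 14 and 66.8% for Rgs16, and medians of 5 and 51.2% over all windows. These matches describe letters in a window and not binding.

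Total counts per library lay between 80842635 and 90771289, with MBNL KD replicate 3 the lowest, and a limit of 3 counts, which covers counting error only, corresponded to 0.0331 to 0.0371 CPM. Even counts were 2.35 to 2.69 times as common as odd counts in every library. The totals exceeded the number of reads to which the paper subsampled each library. The mean of Rbpms was 13346 ± 701 scaled counts in D1 against 3337 ± 60.3 in RBPMS KD1 (SD, n = 3), and Mbnl1 and Mbnl2 were at 23.7% and 29.5% of their D1 means in MBNL KD, while in P, Rbpms was at 6.30% and Mbnl2 at 52.1%. All 11 smooth muscle markers examined were present in D1, with a summed level of 901055 to 946939 scaled counts, and 6 of 7 fibroblast markers exceeded a mean of 100 scaled counts in every group. The summed smooth muscle level was 21905 to 23286 in P, 447211 to 463583 in RBPMS KD1 and 711885 to 723234 in MBNL KD. Most of the D1 sum was Acta2 and Tagln, with means of 447572 and 288424 scaled counts. In MBNL KD, 3 of the 11 passed the adjusted p as higher and 8 as lower. Of these 11 markers, 10 were called lower and 1 higher in P, 5 lower and 0 higher in RBPMS KD1, and 1 lower and 1 higher in MBNL KD, and Des was the higher one both times, while over all genes tested 16.4% were called higher and 11.2% lower in P, 4.68% were called in RBPMS KD1 and 10.2% in MBNL KD. The sum of 8 pericyte markers was 157567 to 161578 in D1, 44541 to 45940.1 in P, 167591 to 171974 in RBPMS KD1 and 148859 to 150896 in MBNL KD, with none at 0, and of 6 tested 4 were called lower in P, 0 in RBPMS KD1 (by edgeR, with 5 at an unadjusted p under 0.05) and 1 higher in MBNL KD, to be read against the same shares. Kcnj8 and Vtn had D1 means of only 0.680 and 2.73 scaled counts. Pdgfrb (81271), Notch3 (45508) and Cspg4 (28166) made up most of the D1 sum. Of 8 endothelial markers, Cdh5, Kdr, Emcn and Cldn5 were at 0 in D1 and in both knockdowns, and the sum was 67.1 to 72.5 in D1, 487 to 605 in P, 162 to 165 in RBPMS KD1 and 82.9 to 127 in MBNL KD. All 3 that were tested were called higher in P (Cdh5 passed the filter on low counts through the P libraries alone), both that were tested, Tek and Vwf, were called higher in RBPMS KD1, and neither of them was called in MBNL KD. The sum of the 7 fibroblast markers was 1.997e+06 to 2.093e+06 in D1 and 2.179e+06 to 2.369e+06 in P. It was 2.687e+06 to 2.850e+06 in RBPMS KD1 and 2.164e+06 to 2.195e+06 in MBNL KD. Of these 7, Dcn was called lower in MBNL KD, at 42.1% of its D1 mean, with 0 called in P and in RBPMS KD1. The sum of 8 leukocyte markers was 79.6 to 108 in D1, 97.9 to 156 in P, 89.2 to 121 in RBPMS KD1 and 127 to 144 in MBNL KD, with Csf1r called higher in MBNL KD by 2.46-fold and Cd3e, which passed the filter through P alone, in P. That of 8 proliferation markers was 79662 to 81834 in D1, 98045 to 100307 in P, 65924 to 67939 in RBPMS KD1 and 52805 to 53127 in MBNL KD. The part of these shifts in the results for the RGS genes was not tested, and in bulk RNA fewer cells of a type and less RNA per cell cannot be told apart.

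Scaled counts are counts divided by the library's size factor (TMM normalisation over the 12 libraries), and they are compared here within a gene, not between genes, since no gene lengths were used. A gene was called changed when edgeR's quasi-likelihood F test gave it a p under 0.05, after Benjamini-Hochberg adjustment over all genes tested, and its change exceeded 2-fold, which is 1 on the log2 scale.

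The first comparison asked how the RGS genes differ between the proliferative and the differentiated culture. Of the 7 genes, 5 had enough counts to be tested, and 3 were called, with Rgs2 and Rgs16 higher and Rgs3 lower in P. Rgs16 had no counts in D1 and passed the filter on low counts through the P libraries alone, so that its call is a description and not support for a difference. Among all 16814 genes tested, 27.6% were called, 16.4% higher and 11.2% lower, so that 59.4% of the calls were higher (45.9% under quantile normalisation). Rgs10 and Rgs12 also passed the adjusted p, with changes smaller than 2-fold, as did 77.9% of all genes tested. Rgs4 and Rgs5 were near the limit of detection and were not tested. Of the 2758 genes called higher, 1022 had likewise passed the filter through P alone, and of the 1883 called lower, 210 through D1 alone. Among the other 15550 genes, 11.2% were called higher and 10.8% lower. The median log2 fold change of Rgs2, Rgs3, Rgs10 and Rgs12 was -0.22, and that of these 15550 genes was -0.017 (0.020 over all genes tested).

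Rgs3, a regulator of Gi and Gq whose longer forms carry a PDZ domain, fell furthest among the tested members. It was at 18652, 18342 and 18692 scaled counts in the D1 libraries and at 3298, 3292 and 3261 in the P libraries. The libraries within each culture lay within a few percent of each other and the cultures were far apart. The means were 18562 ± 192 in D1 and 3284 ± 19.8 in P (SD, n = 3), so that P retained 17.7% of the D1 level. This was a 5.66-fold fall, a log2 fold change of -2.50 (SE 0.028, edgeR adjusted p = 2.6e-37).

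Rgs2, the Gq-selective member, went the other way. It was at 299, 291 and 299 scaled counts in D1 and at 1221, 1116 and 1009.8 in P, and the lowest P library was more than 3 times the highest D1 library. The mean rose from 296 ± 4.68 to 1116 ± 105.7 (SD, n = 3). This was a 3.76-fold rise, a log2 fold change of 1.91 (SE 0.079, edgeR adjusted p = 6.7e-21). The plot of scaled counts by library shows these opposite shifts next to the other members.

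**Figure D1:**
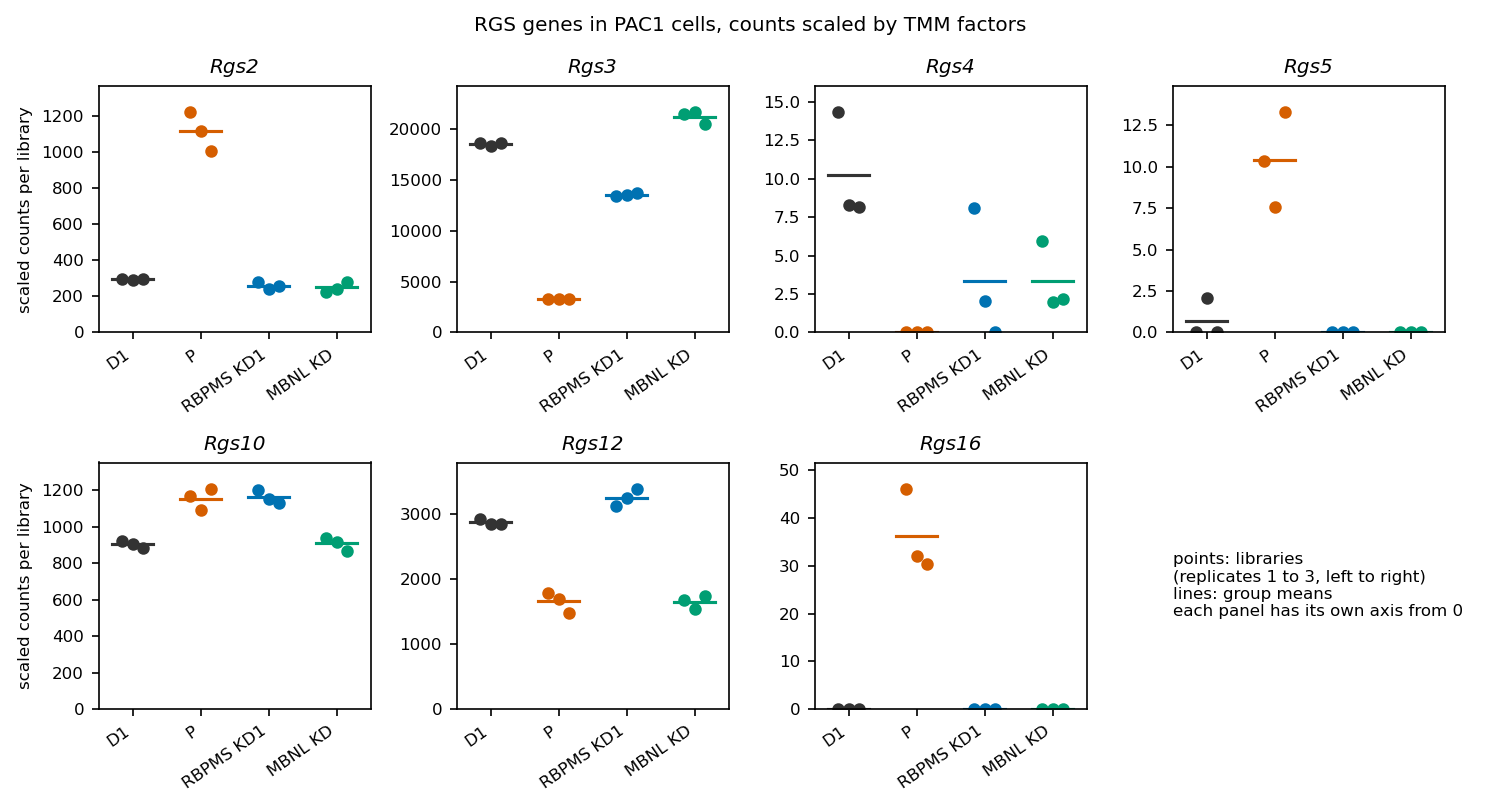
Scaled counts of the 7 RGS genes in each library, in 1 panel per gene with its own linear axis from 0. Points are libraries (replicates 1 to 3 from left to right), coloured by group, and lines are group means. Rgs2 rises from a mean of 296 in D1 to 1116 in P while Rgs3 falls from 18562 to 3284, and Rgs16 has counts in the 3 P libraries alone.

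Rgs16, a small R4 member, was detected in P alone of the 4 groups. Its raw counts were 49, 34 and 32 in the P libraries, or 46.1, 32.2 and 30.3 scaled counts, with 0 counts in all 9 other libraries. Every P library stood well above the limit of 3 counts. The P mean of 36.2 ± 8.64 scaled counts (SD, n = 3) was 11.8-fold higher than the 3-count limit per library in D1, with each count taken as a separate fragment. That ratio would be lower if the mates of a pair were counted singly. No p is given for it, for the reason named above.

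Rgs12, a large multidomain member that also binds Ras, had 2927, 2847 and 2858 scaled counts in D1 and 1790, 1696 and 1486 in P. The groups did not overlap, and P replicate 3 was the lowest of the 6. The P mean was 57.6% of that of D1, a log2 fold change of -0.80 (SE 0.050, edgeR adjusted p = 5.8e-16), which is a fall of 1.74-fold and below the 2-fold threshold. Rgs10, a small R12 member, had 919, 905 and 883 scaled counts in D1 and 1166, 1090.1 and 1207 in P. Its P libraries all lay above those of D1, with a rise of 0.35 on the log2 scale (SE 0.059, edgeR adjusted p = 2.5e-06), or 1.28-fold.

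Rgs4 and Rgs5, which are neighbours on chromosome 13, were at the edge of detection in every group. Rgs4 had 14, 8 and 8 counts in D1 and 0 in all 3 P libraries, and the D1 mean was 3.61-fold higher than the 3-count limit per library in P. The knockdown libraries, at 8, 2 and 0 counts in RBPMS KD1 and 6, 2 and 2 in MBNL KD, spread between P and D1. Rgs5 showed the reverse order, with 11, 8 and 14 counts in P, 0, 2 and 0 in D1 and 0 in all 6 knockdown libraries. No p is given for either, since each stands against a group at or near 0. All 8 libraries with counts of Rgs4 had an even count, so that these values rest on few sequenced fragments if the mates of a pair were counted singly. The 3.61-fold ratio would then be lower.

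The second comparison asked how the same genes respond when Rbpms is lowered in differentiated cells. None of the 4 genes with enough counts was called by edgeR, DESeq2 or limma, against 4.68% of the 15904 genes tested, of which 65.4% were higher (54.4% under quantile normalisation). Rgs3, Rgs10 and Rgs12 passed the adjusted p with changes under 2-fold, as did 59.1% of all genes tested, and the same 3 had an unadjusted p under 0.05. The median log2 fold change of the 4 genes was -0.0050, and that of all genes tested was 0.0043.

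Rgs3 had 13455, 13537 and 13725 scaled counts in RBPMS KD1, all below the lowest D1 library, and its mean of 13572 ± 138 (SD, n = 3) was 73.1% of that of D1. The log2 fold change was -0.45 (SE 0.025, edgeR adjusted p = 4.1e-15). Rgs10 had 1200.0, 1153 and 1132 scaled counts, all above D1, with a log2 fold change of 0.37 (SE 0.058, edgeR adjusted p = 3.2e-06). Both genes lay on the same side of D1 as in P, and both comparisons use the same D1 libraries. For Rgs10, the RBPMS KD1 libraries lay within the range of the P libraries.

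Rgs12 had 3134, 3253 and 3392 scaled counts in RBPMS KD1, which lay above D1, opposite to its side in P. The rise was 0.18 on the log2 scale (SE 0.039, edgeR adjusted p = 2.1e-04). Rgs2 had 280.0, 240.1 and 258 scaled counts, each below the lowest D1 library, but its log2 fold change of -0.19 (SE 0.104) did not pass the test (edgeR adjusted p = 0.116). Rgs16 remained at 0 counts in the 3 RBPMS KD1 libraries.

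The third comparison asked the same of the joint knockdown of Mbnl1 and Mbnl2. Again none of the 4 tested genes was called by edgeR, DESeq2 or limma, against 10.2% of the 16053 genes tested. Rgs3 and Rgs12 passed the adjusted p with changes under 2-fold, as did 67.5% of all genes tested, and 3 of the 4 had an unadjusted p under 0.05. The median log2 fold change of the 4 genes was -0.11, and that of all genes tested was 0.0099.

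Rgs12 moved most of the 4. It had 1679.7, 1540.0 and 1737 scaled counts in MBNL KD, each below the lowest D1 library. The mean of 1652 ± 101 (SD, n = 3) was 57.4% of the D1 level, and the log2 fold change was -0.79 (SE 0.046, edgeR adjusted p = 1.4e-15), or a 1.73-fold fall. The P libraries, at 57.6% of D1, covered the same range of levels.

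Rgs3 had 21529, 21666 and 20555 scaled counts in MBNL KD, all above D1, and rose by 0.20 on the log2 scale (SE 0.026, edgeR adjusted p = 4.4e-08). Rgs10 had 940.2, 916 and 868, which overlapped the D1 libraries, with a log2 fold change of 0.016 (SE 0.061, edgeR adjusted p = 0.830). Rgs2 had 226, 242 and 281 scaled counts, each below the lowest D1 library, with a log2 fold change of -0.24 (SE 0.110). It missed the threshold (edgeR adjusted p = 0.0524), and without MBNL KD replicate 3 the value was -0.34 and passed (edgeR adjusted p = 0.014). Rgs16 and Rgs5 were at 0 counts in MBNL KD.

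**Figure D2:**
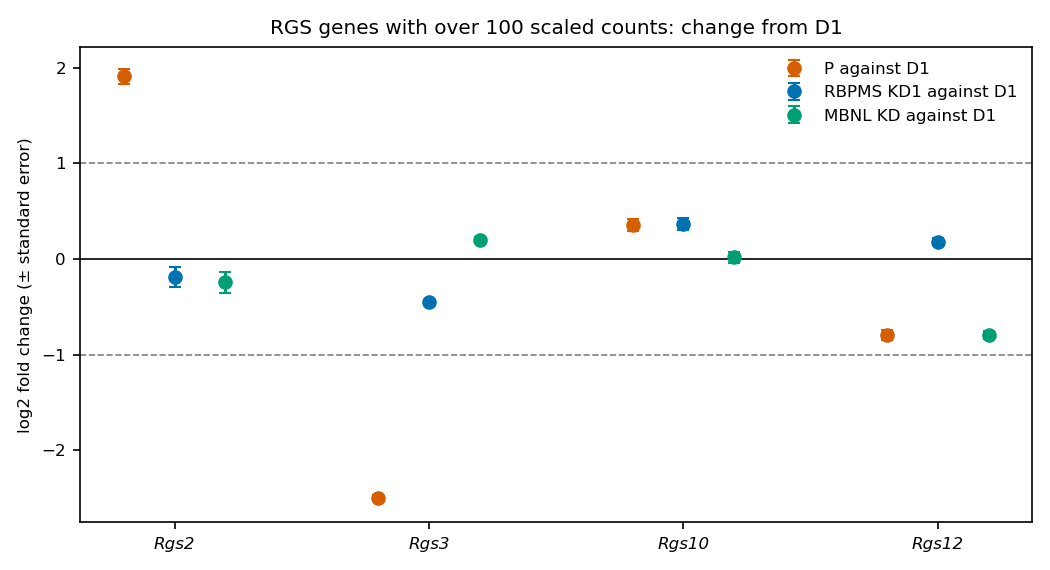
Log2 fold change from D1 (vertical axis, points with bars of 1 SE) of Rgs2, Rgs3, Rgs10 and Rgs12 in P, RBPMS KD1 and MBNL KD, 3 libraries per group, with dashed lines at the 2-fold threshold. Rgs2 (1.91) and Rgs3 (-2.50) pass it in P, and Rgs12 lies at -0.80 in P and -0.79 in MBNL KD but at 0.18 in RBPMS KD1.

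The knockdowns were then compared with each other, without D1. None of the 4 tested genes was called by edgeR, DESeq2 or limma, against 11.9% of 16111 genes, and 3 passed the adjusted p (and an unadjusted p under 0.05), as did 69.5% of all genes tested. Rgs12 was lower in MBNL KD than in RBPMS KD1, with a log2 fold change of -0.98 (SE 0.047, edgeR adjusted p = 1.3e-17) or 1.97-fold, which is just inside the 2-fold threshold. It passed that threshold when RBPMS KD1 replicate 1, MBNL KD replicate 1 or MBNL KD replicate 3 was left out, each of which gave 1 call in place of 0. Rgs3 was higher in MBNL KD by 0.65 (SE 0.026, edgeR adjusted p = 2.0e-19), or 1.57-fold. Rgs10 was lower, with a log2 fold change of -0.35 (SE 0.060, edgeR adjusted p = 5.3e-06), and Rgs2 gave -0.056 (SE 0.116, edgeR adjusted p = 0.685), with overlapping libraries.

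Set in order, the groups gave 4 different patterns. Rgs2 was highest in P, followed by D1 and then by RBPMS KD1 and MBNL KD, whose libraries overlapped. Rgs3 was highest in MBNL KD, followed by D1, RBPMS KD1 and P, with no overlap between any neighbouring groups. Rgs10 was high in RBPMS KD1 and P, which overlapped, and low in MBNL KD and D1, which also overlapped. Rgs12 was highest in RBPMS KD1, then D1, and lowest in P and MBNL KD, which overlapped.

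The genes whose pattern over the 12 libraries was most like that of each member were found by the Euclidean distance between log2 CPM taken relative to the D1 mean. For Rgs2 these were Golga4 (distance 0.394) and Gpd2 (0.436), against a median distance of 3.58 over 13405 genes. Rgs3 was followed most closely by Dmpk (0.475) and Magea9 (0.476; median 4.51), and Rgs10 by Ogfr (0.124) and Cisd3 (0.165; median 1.58). Those nearest to Rgs12 were Uvrag (0.373) and Klf2 (0.377; median 2.31), and those nearest to Rgs16 were Rps6ka5 (0.690) and Tbx15 (0.706; median 7.44). With 0 counts of Rgs16 in 9 libraries, its values relative to D1 are set by the prior count of 2 added before the log, and with a prior count of 1 or 5, chosen after seeing the data, neither gene was among its nearest 2. For Rgs3, a prior count of 1 put Kalrn (0.476) in the place of Magea9, and the nearest 2 of Rgs2, Rgs10 and Rgs12 were the same with both.

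The chromosomal surroundings of the members were examined after the values of Rgs16 had been seen, using the gene order of the RefSeq annotation of GRCr8. On 1 side of Rgs16 lies Rgs8, another R4 member, with Npl (N-acetylneuraminate pyruvate lyase) beyond it. Rgs8 had 43, 38 and 50 counts in the P libraries, 0 in D1 and RBPMS KD1, and 0, 4 and 4 in MBNL KD. Its P mean of 41.3 ± 5.77 scaled counts (SD, n = 3) was 13.4-fold higher than the 3-count limit per library in D1, a ratio that would be lower if the mates of a pair were counted singly. Npl had 2, 0 and 2 counts in D1 and 116, 69 and 91 in P. On the far side of Npl, the helicase gene Dhx9 gave a log2 fold change of -0.11. Npl and Rgs8 had at most 2 counts in each D1 library, so that they passed the filter on low counts through the P libraries and their calls are a description only.

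**Figure D3:**
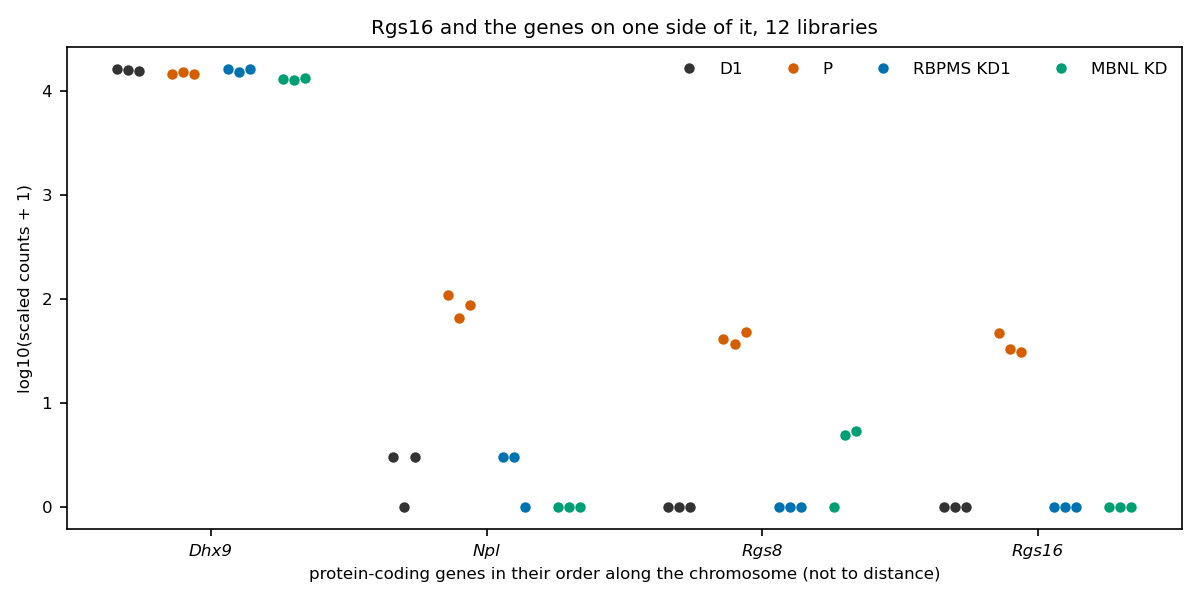
Level of Rgs16 and of its neighbours on 1 side in 12 libraries, as log10 of scaled counts plus 1 (vertical axis), with the protein-coding genes in their order along the chromosome (horizontal axis, not to distance) and 1 colour for each of the 4 groups. Npl, Rgs8 and Rgs16 stand higher in the 3 P libraries than in the other 9, whereas Dhx9 lies close together in all groups.

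The neighbours of the other members gave mixed values. Next to Rgs2, Uchl5 gave a log2 fold change of 0.64 in P and Rgs13 was not tested. Zfp618, beside Rgs3, was called lower in P (-1.20, SE 0.048, edgeR adjusted p = 1.8e-21), the same side as Rgs3, and its other neighbour LOC100910017 gave 0.14. Beside Rgs10, Tial1 gave 0.034 and was not past the test, and Ahsp, with at most 9 counts in a D1 library, passed the filter through P alone and was called higher there, as a description. Next to the pair Rgs5 and Rgs4, Nuf2 gave 0.17 on 1 side and Ccdc190 was not tested on the other. Hgfac and Dok7, on 1 side of Rgs12, were not tested in any comparison. Rps17l4 and Rgs12l1, on its other side, were not analysed here, and whether counts of Rgs12 include reads from Rgs12l1 was not tested.

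Among all 21 RGS genes examined, 12 were tested in P and 4 were called higher and 4 lower, and over all genes tested there 16.4% were called higher and 11.2% lower. The 8 called include the 3 members whose calls are given above. Of the 4 higher calls, Rgs16, Rgs8 and Rgs14 had at most 2 counts in any D1 library and passed the filter on low counts through P alone, as did Rgs7 among the lower ones through D1 alone. Among the 8 RGS genes without this limit, 1 was called higher and 3 lower. The 14 RGS genes beside the members included Rgs17, an Rz member that acts on Gi and Gz, which fell from 2081 ± 39.5 to 826 ± 37.4 scaled counts in P (-1.33, SE 0.053, edgeR adjusted p = 1.7e-21) and was higher in both knockdowns, by 0.33 in RBPMS KD1 and 0.58 in MBNL KD on the log2 scale. Rgs22 was lower in P (-2.17, SE 0.325, edgeR adjusted p = 3.5e-07), at 62.9 ± 14.3 scaled counts in D1 and 13.9 ± 1.99 in P. In MBNL KD it was called higher, at 181 ± 26.1 scaled counts (1.53, SE 0.183, edgeR adjusted p = 1.4e-08). In RBPMS KD1, none of the 9 RGS genes tested was called by edgeR, DESeq2 or limma, and 5 had an unadjusted p under 0.05, against 4.68% of all genes called.

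Some further RGS genes are given although their values were seen before they were chosen. Rgs7, of the R7 subfamily that pairs with the beta subunit Gnb5, had at most 6 counts in a P library, where its call was a lower one, and was called higher in MBNL KD (1.02, SE 0.217, edgeR adjusted p = 1.3e-04), although the latter change fell short of 2-fold without D1 replicate 3 (0.92). Rgs14 had 0, 0 and 2 counts in D1 and a mean of 25.5 ± 1.03 scaled counts in P. Rgs19, an Rz member, was at 55.7% of its D1 mean in RBPMS KD1, with a mean of 3111 ± 120 before and 1732 ± 18.1 scaled counts after the knockdown (-0.84, SE 0.042, edgeR adjusted p = 3.9e-16). Its value in MBNL KD was -0.21. Rgs20 and Rgs21 had no counts in any library.

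Of the proteins that partner RGS proteins, all 8 genes were tested, and 1 was called higher and 1 lower in P and none in either knockdown by edgeR, DESeq2 or limma (an unadjusted p under 0.05 was reached by 6 in RBPMS KD1 and by 5 in MBNL KD). The shares of all genes called were 27.6% in P, 4.68% in RBPMS KD1 and 10.2% in MBNL KD. Rgs7bp, which anchors R7 proteins at the membrane, was the lower one, with a log2 fold change of -1.92 in P and 0.89 in MBNL KD. Gpsm3, which binds Gi alpha subunits, was the higher one (1.22, but 0.73 under quantile normalisation and 0.50 with limma on the authors' values, both under 2-fold), and it passed both thresholds in RBPMS KD1 only without D1 replicate 2 (1.02, against 0.74 with all libraries).

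The 11 tested genes of G alpha subunits, the substrates of RGS proteins, showed no call in P by edgeR, DESeq2 or limma, against 27.6% of all genes, although 7 had an unadjusted p under 0.05, and their median log2 fold change was 0.041 beside 0.020 over all genes. Gnai2, a main Gi subunit, was the 1 called in MBNL KD, against 10.2% of all genes, where it fell from 52006 ± 1095 to 24182 ± 621 scaled counts (SD, n = 3; -1.10, SE 0.027, edgeR adjusted p = 8.8e-25). It gave -0.38 in RBPMS KD1 and 0.042 in P, and the latter did not pass the test. With limma on the authors' normalised values the change in MBNL KD was -0.98, just short of 2-fold.

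Of 11 tested genes of beta and gamma subunits, 4 were called higher and 1 lower in P, where the shares over all genes were 16.4% and 11.2%, and their median log2 fold change was -0.051. The gamma subunit gene Gng11 rose from 53.2 to 4402 scaled counts (6.36, SE 0.083, edgeR adjusted p = 2.9e-35), the beta subunit gene Gnb4 rose 6.52-fold, and Gng8 fell (-1.67). Gng4 had 30.6, 10.3 and 6.12 scaled counts in the D1 libraries, 105, 116 and 125 in P and 33.8, 37.5 and 26.2 in MBNL KD. The P libraries lay above D1, by 7.31-fold with all libraries and 13.8-fold without D1 replicate 1, the highest of its group, while MBNL KD replicate 3 lay within the D1 range. In MBNL KD, 2 of these subunits were called higher (1 with DESeq2), among 10.2% of all genes called. Gng4 was 1 of them (1.05), but 4 of the 6 refits without 1 library lost its call, those without D1 replicate 2 (0.82), D1 replicate 3 (0.67), MBNL KD replicate 1 (1.03) or MBNL KD replicate 2 (0.94), and without D1 replicate 1 the value was 1.97. In RBPMS KD1 none of the 11 was called by edgeR, DESeq2 or limma, with 6 at an unadjusted p under 0.05, against 4.68% of all genes called.

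Of 16 effector genes of Gq and G12, 3 were called higher and 4 lower in P, with a median log2 fold change of -0.048 beside 0.020 over all genes, of which 16.4% were called higher and 11.2% lower. The higher ones were the phospholipase Plcb1 (3.45) and the inositol trisphosphate receptors Itpr2 (4.08) and Itpr3 (1.17), and the lower ones included Plcb4 (-1.57) and the guanine nucleotide exchange factors Kalrn (-2.26) and Arhgef25 (-2.24). In MBNL KD, Plcb4 was called higher (1.08) and Itpr3 lower (-1.25), each opposite to its side in P. Among 7 tested adenylyl cyclases, only some of which Gi restrains, 5 were called higher and 1 lower in P. Adcy4 and Adcy7, with at most 7 counts in a D1 library, passed the filter through P alone, and of the other 5 cyclases 3 were called higher and 1 lower, with a median log2 fold change of 1.06. The summed level of all 9 cyclase genes was 13530.5 to 14635 scaled counts in D1 and 7024 to 7178 in P. It was 18720 to 19434 in RBPMS KD1 and 9516 to 9727 in MBNL KD. Most of the D1 sum was Adcy6, with a mean of 12338 scaled counts there and 3342 in P. Adcy8 rose by 3.94, Adcy5 by 2.60 and Adcy3 by 1.06 on the log2 scale and Adcy6 fell (-1.89), and Adcy8 was also called higher in MBNL KD (1.41, but 0.44 with limma on the authors' values). Under quantile normalisation and with limma, Adcy3 came just short of 2-fold in P (0.98 and 0.97).

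Of 18 tested receptors that couple to Gq or Gi, 5 were called higher and 9 lower in P. Of these calls, Ednrb, Chrm3 and Ptger3 were higher with at most 2 counts in a D1 library, having passed the filter through P alone, and Adra2a was lower, having passed it through D1 alone. Of the other 14 receptors, 2 were called higher and 8 lower, with a median log2 fold change of -1.30, whereas 11.2% and 10.8% of all genes without this limit were called higher and lower. The sphingosine-1-phosphate receptor S1pr1 (-4.71), the thromboxane receptor Tbxa2r (-3.50), the nucleotide receptor P2ry6 (-3.41) and the alpha-1 adrenoceptor Adra1b (-2.15) were lower, whereas the lysophosphatidic acid receptor Lpar1 was higher (2.63). Agtr1a, the angiotensin II receptor through which Gq is activated, was called lower in P (-1.91) and also in RBPMS KD1. There it fell from 360.0 ± 2.97 to 138 ± 11.1 scaled counts (SD, n = 3; -1.39, SE 0.114, edgeR adjusted p = 2.1e-11). In MBNL KD it gave -0.18 and did not pass the test. Of the receptor kinases and arrestins, Grk5 was called lower (-1.30) and Arrb2 higher (1.16) in P, the latter short of 2-fold under quantile normalisation (0.93) and with limma (0.89).

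Among 6 genes that act on RGS proteins after their synthesis, Ado, the dioxygenase named above, was called lower in RBPMS KD1. Its D1 libraries had 1179, 1230.4 and 1197 scaled counts and its RBPMS KD1 libraries had 447, 453 and 534, and the groups were far apart. The means were 1202 ± 26.1 and 478 ± 48.9 (SD, n = 3), and the log2 fold change was -1.33 (SE 0.070, edgeR adjusted p = 1.2e-15). In MBNL KD it gave -0.69, which passed the adjusted p, and in P it was at 102% of D1 and did not pass. Prkg1, the cGMP-dependent kinase that phosphorylates Rgs2, was called lower in P (-2.04) and gave -0.47 in RBPMS KD1.

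Over the 113 genes of these lists beside the members, 90 were tested in P, with 21 called higher and 21 lower, against 16.4% and 11.2% of all genes. Of these calls, 7 higher ones were of genes that passed the filter through P alone and 2 lower ones through D1 alone, and of the other 81 genes 14 were called higher and 19 lower, against 11.2% and 10.8%. In RBPMS KD1, 84 were tested, and 2 were called, Agtr1a and Ado, both lower, against 4.68% of all genes called. In MBNL KD, 84 were tested, with 8 called higher and 2 lower, against 10.2% of all genes called.

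**Figure D4:**
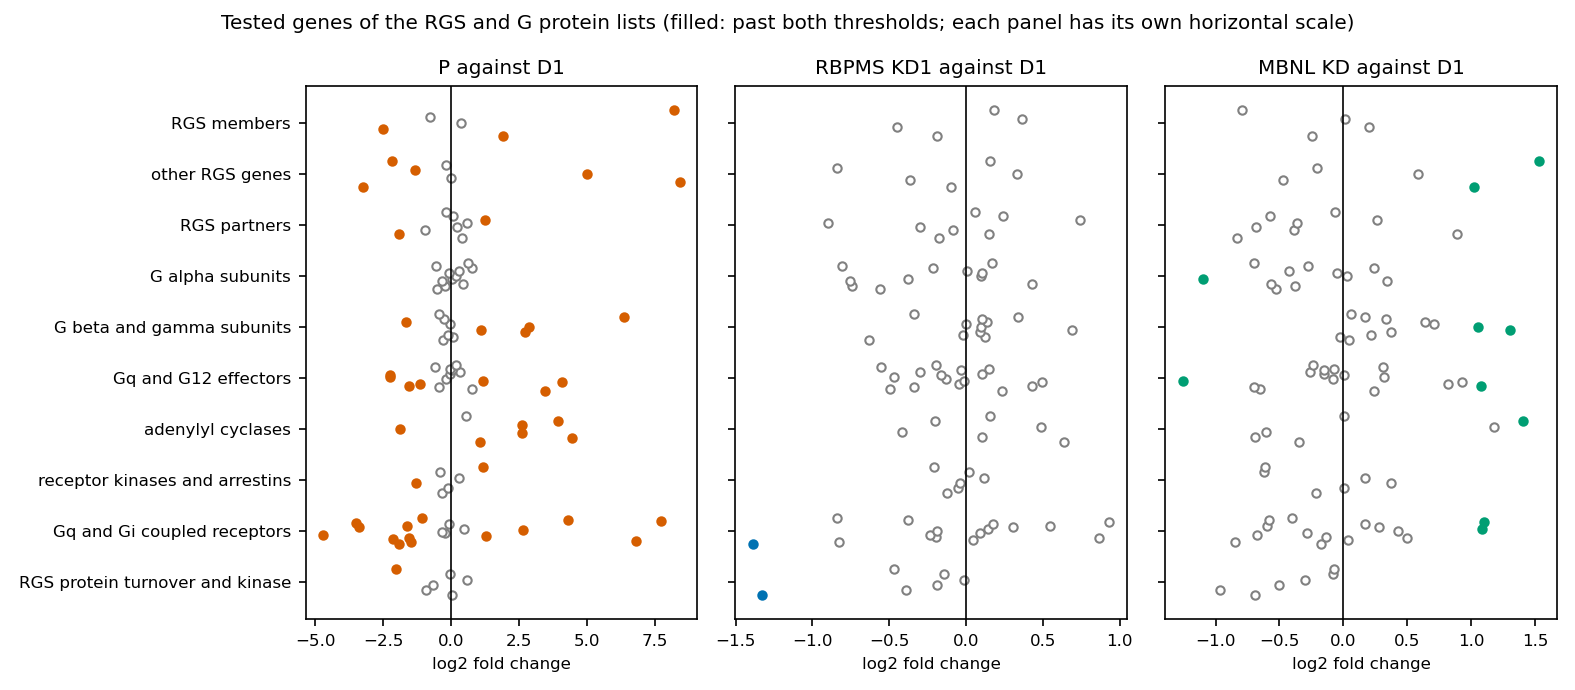
Log2 fold change from D1 (horizontal axis, a separate scale for each panel) of the tested genes in 10 lists of RGS and G protein genes (rows), in P, RBPMS KD1 and MBNL KD. Each point is a gene, and filled points passed both thresholds, with 3 of 5 RGS members filled in P and none of 4 in either knockdown. Points of genes with no counts in D1, such as Rgs16 and Rgs8, are fitted values whose size depends on the small count the fit adds.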

How the data were processed

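Poly(A) RNA-seq of 12 PAC1 libraries was analysed from 2 tables. The authors subsampled the paired reads of every library to the same number, aligned them with STAR 2.7.11b to mRatBN7.2 and deposited raw counts per gene symbol from featureCounts, with read quality reports from FastQC 0.11.9 and MultiQC 1.14. The strand setting, and whether the mates of a pair were counted singly, are not given in the sources used here, so reads of overlapping or antisense genes may be shared. The authors also deposited a normalised table of linear signal values, made from the counts by noise correction (noisyR) and quantile normalisation. It holds 19812 of the 33294 genes and 5 of the 7 RGS genes (not Rgs5 or Rgs16), its smallest value is 35, and it was used for 1 alternative only. The submitters' processing notes also name edgeR 3.40.2 and DESeq2 1.38.3. Their sample descriptions and the paper's methods give different times for the second transfection and harvest.

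Here, edgeR 4.0.16 (R 4.3.3) was run separately for each pair of groups on the deposited counts of its 6 libraries (filterByExpr, TMM, glmQLFit and glmQLFTest, Benjamini-Hochberg adjustment over all genes tested), with no replicate block. The thresholds were those of the paper's methods, 0.05 for the adjusted p and 1 for the size of the log2 fold change. Standard errors were taken as the size of this change over the root of the F statistic. A group at 0 counts was given a limit of 3 counts per library, which covers counting error only and takes each count as a separate fragment. Alternatives used DESeq2 1.42.0 and limma 3.58.1, other normalisations and filters, 1 fit of all 12 libraries, a replicate block and leaving out each library, and, added after seeing the data, counts halved and prior counts of 1 and 5 for the likeness of genes. On data simulated for RBPMS KD1 against D1 (15761 genes), edgeR and DESeq2 each called 200 of 200 changed genes and 0 others. All planted changes exceeded 2-fold, in genes that were not near the limit of detection, and every gene had the same dispersion. The simulation therefore does not cover smaller changes, low counts or mates counted singly.

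The members and gene lists were chosen with earlier results of these data known. Beside the members, a gene of a list was named if called in a comparison with D1 and at a mean of at least 100 scaled counts in a group, with at most 6 per list, as were the 2 genes most like each tested member (log2 CPM with a prior count of 2). The neighbours and the promoter windows were chosen with these values known, and the other side of Rgs16 is not reported here. Gene order and promoter sequences came from RefSeq tables of GRCr8, read with Python 3.11.15, and no genome of mRatBN7.2, gene lengths or protein sequences were used.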

Additional observations from a re-analysis of the deposited data

Results flagged for a closer look

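For 3 RGS genes, the change from D1 differed between the knockdowns in the direct test of MBNL KD against RBPMS KD1. The log2 fold change in that test was 0.65 for Rgs3, -0.98 for Rgs12 and -0.35 for Rgs10, each past an adjusted p of 0.05 in edgeR's quasi-likelihood test. The libraries of the knockdowns did not overlap for these 3 genes, nor for 62 of the 86 tested genes of the lists beside the members. That share was not computed over all genes. For Rgs3 and Rgs12 the knockdowns lay on opposite sides of D1, with Rgs3 lower in RBPMS KD1 and higher in MBNL KD and Rgs12 the reverse. Of all 16111 genes tested, 69.5% passed the same adjusted p.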

How the results depend on the processing

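Of 253 refitted log2 fold changes of the tested members, 245 kept their direction and their side of an adjusted p of 0.05, 5 passed it in addition and 3 changed sign, all of the last near 0. These 3 were Rgs10 in MBNL KD against D1, at -0.0035 without D1 replicate 3 and -0.0092 without MBNL KD replicate 1, and Rgs2 in MBNL KD against RBPMS KD1, at 0.0021 without MBNL KD replicate 1. Over the libraries left out, their values ranged from -0.0092 to 0.046 and from -0.16 to 0.0021. The 5 were all Rgs2: in RBPMS KD1 under quantile normalisation (-0.27), and in MBNL KD under quantile normalisation (-0.37), limma on the authors' values (-0.32), 1 fit of all 12 libraries (-0.25) and without MBNL KD replicate 3 (-0.34). In P against D1, the log2 fold change of Rgs2 ranged from 1.61 to 1.98 and that of Rgs3 from -2.51 to -2.44. With no filter, 5 members were called in P, since Rgs4 and Rgs5 were then tested, each against a group at or near 0, which gives no support. With at least 10 counts in every library, 2933 genes were called in P, since genes under 10 counts in any library of the comparison then drop out, among them Rgs16 (2 members called in place of 3), called RGS genes beside the members (2 in place of 5), beta and gamma subunits (3 in place of 5) and adenylyl cyclases (3 in place of 6). With limma on the authors' values, which hold fewer genes, 209 genes were called in RBPMS KD1, 784 in MBNL KD and 1050 between the knockdowns. Leaving out each library gave 4757 to 4831 genes and 3 to 4 members called in P, 739 to 783 genes and 0 to 0 members in RBPMS KD1, 1657 to 1728 and 0 to 0 in MBNL KD, and 1945 to 2002 and 0 to 1 between the knockdowns. The added member in P was Rgs5, tested only without D1 replicate 1, 2 or 3 or P replicate 2. Like Rgs16, which is among the 3, it stood against a D1 group at or near 0, which gives no support. With the replicate number as a block, 4593, 730, 1634 and 1915 genes and 3, 0, 0 and 0 members were called. Same-numbered libraries did not deviate together (mean correlations of 0.011, -0.0081, -0.018 and -0.0017 over 13700 genes), so that they share only a number. Levels under 3 counts, which concern Rgs4, Rgs5 and Rgs16, were at the limit that this depth allows. With counts halved, 3, 0, 0 and 0 members were called.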
